A study of Mus musculus with 11 samples.

Results

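Notch receptors, their ligands and target genes form a set of 10 genes, Notch1, Notch2, Notch3, Notch4, Dll1, Jag1, Jag2, Hes1, Hey1 and Heyl. The members were taken by symbol, mapped from the Entrez identifiers of the count table. All 10 were found among the 27179 genes of the table, and all 10 passed the filter on low counts that left 17370 genes. Levels are counts-per-million (CPM) after scaling of the library sizes by the TMM method.

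RNA-seq was performed on 11 libraries from 4 groups of sorted mammary epithelial cells of pubertal C57BL/6 mice. All groups came from females aged 5 weeks that carried an E-cadherin-GFP reporter, whose signal guided the dissection of terminal end buds (TEBs) and ducts. Basal cells were the Lin- CD29+ CD24+ Ecad-GFP lo fraction and luminal cells the Lin- CD29+ CD24+ Ecad-GFP hi fraction, where Lin- means free of blood and endothelial surface markers. There were 3 basal duct, 3 basal TEB, 2 luminal duct (replicates 1 and 3) and 3 luminal TEB libraries, each from at least 2 pooled mice. The luminal gate did not split progenitor from mature luminal cells, so each luminal library is a mixture of both. In such bulk samples, fewer cells of a type and less RNA per cell cannot be told apart.

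Notch receptors are single-pass membrane proteins that bind Delta-like and Jagged ligands on a neighbouring cell. Binding exposes the receptor to cleavage by ADAM metalloproteases and then by gamma-secretase, which frees its intracellular domain. This domain enters the nucleus, joins the DNA-binding protein RBPJ and the Mastermind coactivators, and turns on genes such as the Hes and Hey repressors. In the mammary gland the pathway is known for its part in luminal cell fate and in the behaviour of luminal progenitors.

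A receptor, Notch3, and a ligand, Dll1, were called in opposite directions between the cell layers in both structures, and the sequences next to their RefSeq transcription starts are shown for that reason. Promoter windows from RefSeq (build GRCm38.p6) were found for 7 of 10 members, and none was found for Hes1, Hey1 and Heyl. The windows of Jag1 and Jag2 ran into annotated exons and are not printed. A second Dll1 window, at chr17:15375824-15376073, had 153 of its 250 bases in exons and is not printed either. The bases after its start were found in a GENCODE transcript. Each line gives the 250 bases before the start, on the gene's own strand (minus for both), at chr17:32166891-32167140 for Notch3 and at chr17:15376933-15377182 for Dll1, the latter before the more distant of its RefSeq starts. The start used for Notch3 lies within the longest annotated span of the gene, so that the last 6 bases of its line belong to that span. The bases that follow these 2 starts in RefSeq were in 0 transcripts of the GENCODE annotation.
Notch3: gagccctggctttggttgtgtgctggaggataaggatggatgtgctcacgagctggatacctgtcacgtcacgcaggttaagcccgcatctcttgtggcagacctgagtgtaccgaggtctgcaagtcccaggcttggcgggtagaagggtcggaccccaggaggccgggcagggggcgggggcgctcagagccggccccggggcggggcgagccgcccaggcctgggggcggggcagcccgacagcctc
Dll1: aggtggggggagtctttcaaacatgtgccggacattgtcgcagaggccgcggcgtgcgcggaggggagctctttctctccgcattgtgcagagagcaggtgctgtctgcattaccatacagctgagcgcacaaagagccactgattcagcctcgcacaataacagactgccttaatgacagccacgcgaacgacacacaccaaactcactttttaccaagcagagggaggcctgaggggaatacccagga
A search on both strands for TGGGAA, the core motif of RBPJ, and for CACGTG, an E-box bound by Hes and Hey proteins, found 0 matches in either sequence, so that no letters are in capitals. The same search over 32851 RefSeq windows of 250 bases found TGGGAA in 21.6% and CACGTG in 6.02% of them.

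The libraries held between 27989137 and 49221436 counts. Genes of the mitochondrial chromosome took from 4.34% to 37.5% of a library, with the highest shares in basal TEB replicate 1 (37.5%) and luminal duct replicate 3 (28.5%). The sort matched the labels, since 10 basal markers such as Krt5, Krt14 and Trp63 summed to between 18040 and 21852 CPM in basal duct, between 6859 and 9943 CPM in basal TEB and between 226 and 404 CPM in luminal libraries. The 8 luminal markers such as Krt8 and Krt18 summed to between 12372 and 17865 CPM in luminal and between 543 and 821 CPM in basal libraries. Basal duct replicate 2 had the highest sums of several other cell types, at 253.9 CPM for 7 endothelial markers (4.01 to 49.6 CPM in the other libraries), 186.8 CPM for adipocyte markers (at most 75.1 CPM elsewhere), 839.6 CPM for fibroblast markers (at most 490.8 CPM) and 74.7 CPM for immune markers (at most 56.1 CPM). Luminal duct replicate 3 stood above the other luminal libraries in several lists, at 249.7 CPM for fibroblast (6.03 to 53.1 CPM), 75.1 CPM for adipocyte (0 to 9.34 CPM), 56.1 CPM for immune (at most 12.5 CPM) and 31.3 CPM for erythroid markers (at most 6.6 CPM). It was also the highest of them for endothelial (42.6 CPM, beside 4.01 to 18.7 CPM) and pericyte markers (31.1 CPM, beside 8.23 to 10.4 CPM). Its adipocyte sum came from 1 of 5 genes with a count, and that of basal duct replicate 2 from 3 of 5. The stress response list, which includes Fos and Jun, summed to between 15162 and 20838 CPM in basal duct and to between 6167 and 8754 CPM in basal TEB, and its part in any difference between these groups was not tested.

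**Figure D1:**
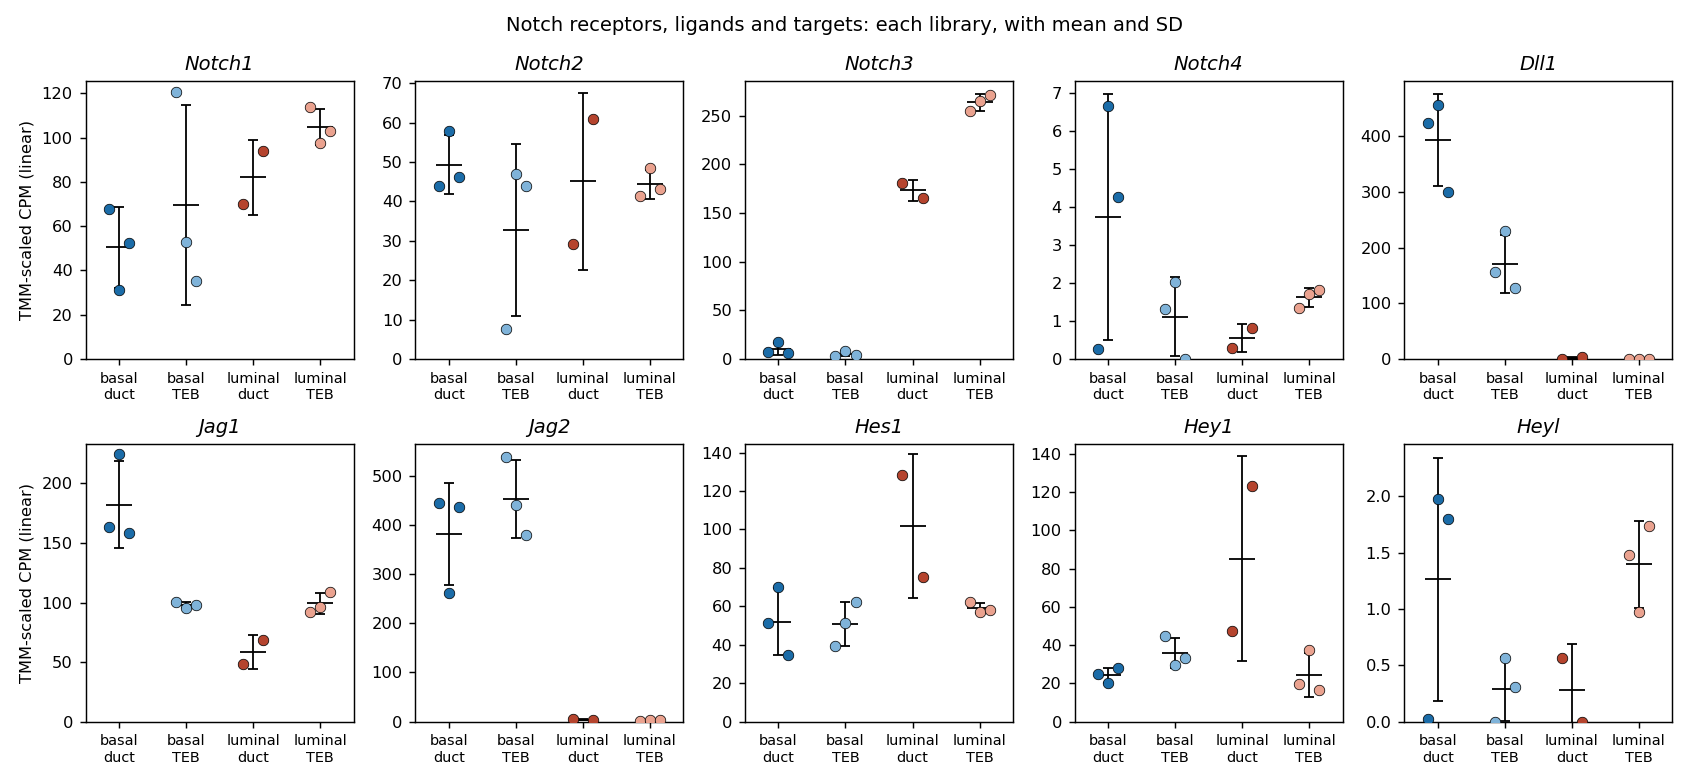
TMM-scaled CPM of the 10 genes on linear axes, 1 panel per gene and 1 point per library, with the mean and SD of each group (n = 3, or 2 for luminal duct). Dll1 and Jag2 are high in basal libraries and close to 0 in luminal ones, Notch3 shows the opposite, and Jag1 is highest in basal duct.

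To ask how the receptors were divided between the layers, basal cells were compared with luminal cells within ducts and within TEBs. Of the 4 receptors, Notch3 alone was called, and it was a luminal gene in both structures. Notch1 and Notch2 were read in every library of both layers without a called difference in the main fit. Notch4 was close to the detection limit in several libraries.

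Notch3 (Entrez 18131, chr17:32120820-32166896, minus strand) encodes a receptor known from vascular smooth muscle and from luminal mammary cells. It stood at 180.8 and 165.8 CPM in luminal duct and at 254.6, 264.5 and 271.4 CPM in luminal TEB replicates 1 to 3. In basal duct it stood at 6.98, 17.7 and 6.03 CPM and in basal TEB at 3.41, 8.63 and 4.40 CPM. Every luminal library therefore lay far above every basal library. In ducts the basal level was lower by 4.08 ± 0.46 (SE) on the log2 scale, or 16.9-fold (edgeR quasi-likelihood test, FDR = 5.79e-05), where FDR is the p-value adjusted over all 17370 genes and a gene is called below 0.05. In TEBs it was lower by 5.57 ± 0.48, or 47.4-fold (edgeR, FDR = 4.88e-06). The highest basal value was that of basal duct replicate 2, and without this library the log2 difference in ducts was -4.73. Pericytes also express Notch3, and 6 pericyte markers summed to 116 to 191 CPM in basal and to 8.23 to 31.1 CPM in luminal libraries. In basal TEB replicate 1, 2 of the 6 were detected. Most of the basal sum was Mcam, at 115 to 181 CPM, while the defining marker Rgs5 stood between 0 and 2.82 CPM in basal and between 0 and 5.96 CPM in luminal libraries. The part of pericyte RNA in the Notch3 levels was not tested.

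Between TEB and duct, Notch3 gave a log2 difference of 0.60 ± 0.44 in luminal cells (edgeR, FDR = 0.508) and of -0.88 ± 0.40 in basal cells (edgeR, FDR = 0.347). Neither difference was called, although the 2 luminal duct libraries both lay below the 3 luminal TEB libraries. The difference between these 2 changes, the interaction, was -1.48 (95% interval -2.79 to -0.17; edgeR, FDR = 0.279).

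Notch1 (Entrez 18128, chr2:26457902-26503822, minus strand), a broadly used receptor, stood at 67.9, 31.3 and 52.2 CPM in basal duct and at 120.7, 52.7 and 35.3 CPM in basal TEB. In luminal duct it stood at 70.0 and 94.0 CPM, and in luminal TEB at 113.8, 97.6 and 102.7 CPM. The luminal TEB libraries were close together, whereas the basal TEB libraries spread over the range of all groups. The highest basal value came from basal TEB replicate 1, the library with the highest mitochondrial share. The basal level differed from the luminal level by -0.70 on the log2 scale in ducts (95% interval -1.65 to 0.25; edgeR, FDR = 0.275) and by -0.59 in TEBs (95% interval -1.45 to 0.27; edgeR, FDR = 0.310). In TEBs Notch1 was called lower in basal cells in 4 of 22 alternatives. Of these, 1 was a fit with a single library left out (edgeR, FDR = 0.0144).

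Notch2 (Entrez 18129, chr3:98013538-98150367, plus strand), the receptor closest to Notch1 in structure, stood at 44.0, 58.0 and 46.1 CPM in basal duct and at 7.68, 46.9 and 43.9 CPM in basal TEB. It stood at 29.1 and 60.9 CPM in luminal duct and at 41.2, 48.4 and 43.2 CPM in luminal TEB. With the exception of basal TEB replicate 1 at 7.68 CPM, all libraries lay between 29.1 and 60.9 CPM. No comparison called Notch2 in the main fit, and the basal to luminal difference had a 95% interval of -1.09 to 1.35 in ducts and -1.52 to 0.66 in TEBs on the log2 scale. In ducts 1 of 22 alternatives called it.

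Notch4 (Entrez 18132, chr17:34564286-34588543, plus strand) is known as the receptor of endothelial cells. It stood at 0.26, 6.66 and 4.26 CPM in basal duct, at 1.33, 2.02 and 0 CPM in basal TEB, at 0.30 and 0.82 CPM in luminal duct and at 1.35, 1.71 and 1.81 CPM in luminal TEB. The count of 0 in basal TEB replicate 3 allows a level of up to 0.084 CPM, taken at 3 counts, a limit that covers counting error only. The 13 counts in basal duct replicate 1 gave a 95% Poisson interval of 0.138 to 0.444 CPM, below the interval of 5.86 to 7.53 CPM in basal duct replicate 2. The libraries of basal duct thus differed by more than counting error, and the groups were not separated. The highest level stood in basal duct replicate 2, the library with the highest endothelial sum, where all 7 endothelial markers were detected. Dll4, an endothelial Notch ligand, stood at 6.74 CPM there and at 0 in the other 2 basal duct libraries. However, basal duct replicate 3 had 4.26 CPM of Notch4 with an endothelial sum of 22.6 CPM, and luminal duct replicate 3 had 0.82 CPM with a sum of 42.6 CPM. The part of endothelial RNA in the Notch4 level was not tested.

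**Figure D2:**
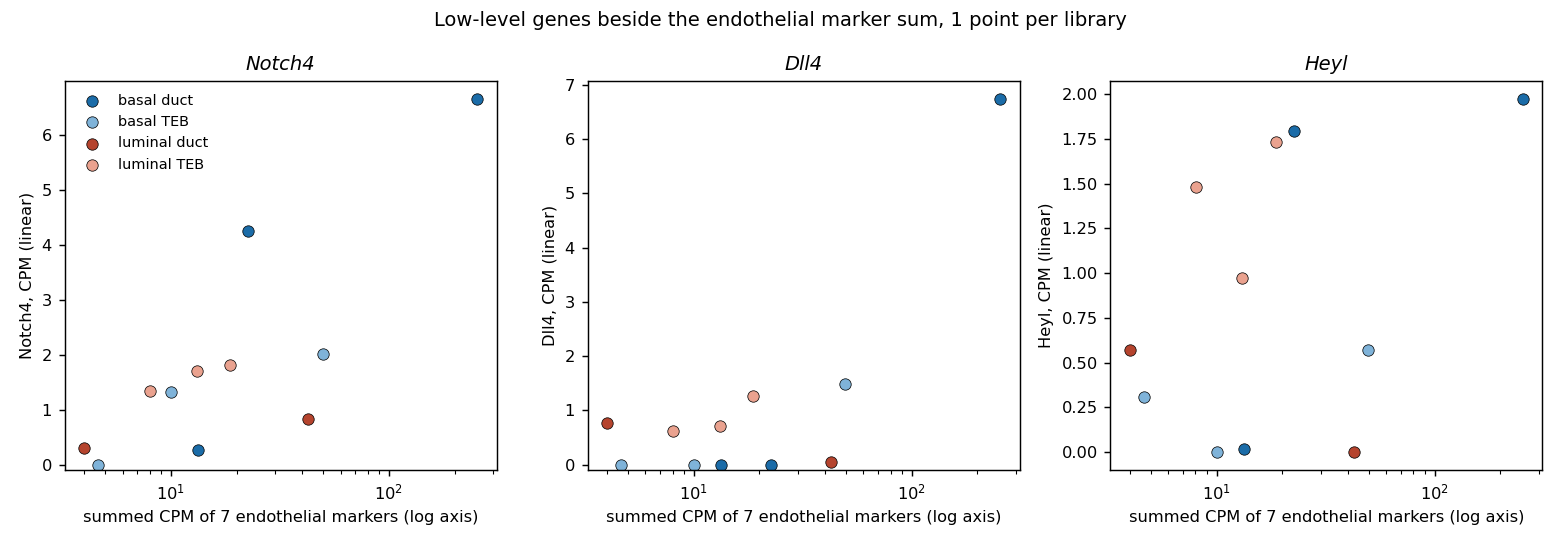
CPM of Notch4, Dll4 and Heyl (linear axes) against the summed CPM of 7 endothelial markers (log axis), 1 point per library coloured by group. Basal duct replicate 2, at a sum of 253.9 CPM, has the highest Notch4 (6.66 CPM) and Dll4 (6.74 CPM), while the libraries with sums of 42.6 and 49.6 CPM have 0.82 and 2.02 CPM of Notch4.

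Division of CPM by the exonic length of each gene allowed the receptors to be set beside each other. These shares are taken within a library, so that no scaling between libraries enters. Notch3 made up 63.0% ± 8.6 (SD, n = 2) of the summed receptor CPM per kb in luminal duct and 68.2% ± 1.4 (n = 3) in luminal TEB. The basal shares were 10.8% ± 6.7 in duct and 6.38% ± 3.25 in TEB (n = 3 each). Notch1 and Notch2 carried most of the basal receptor level, at 44.8% ± 15.8 and 39.6% ± 5.8 in duct and at 61.0% ± 25.5 and 31.3% ± 23.2 in TEB. The wide basal TEB values trace to replicate 1, where Notch1 reached 90.3% and Notch2 5.19%. The receptor sum was 11.9 ± 0.5 CPM per kb in basal duct, 11.3 ± 2.8 in basal TEB, 34.8 ± 2.7 in luminal duct and 48.7 ± 0.6 in luminal TEB.

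**Figure D3:**
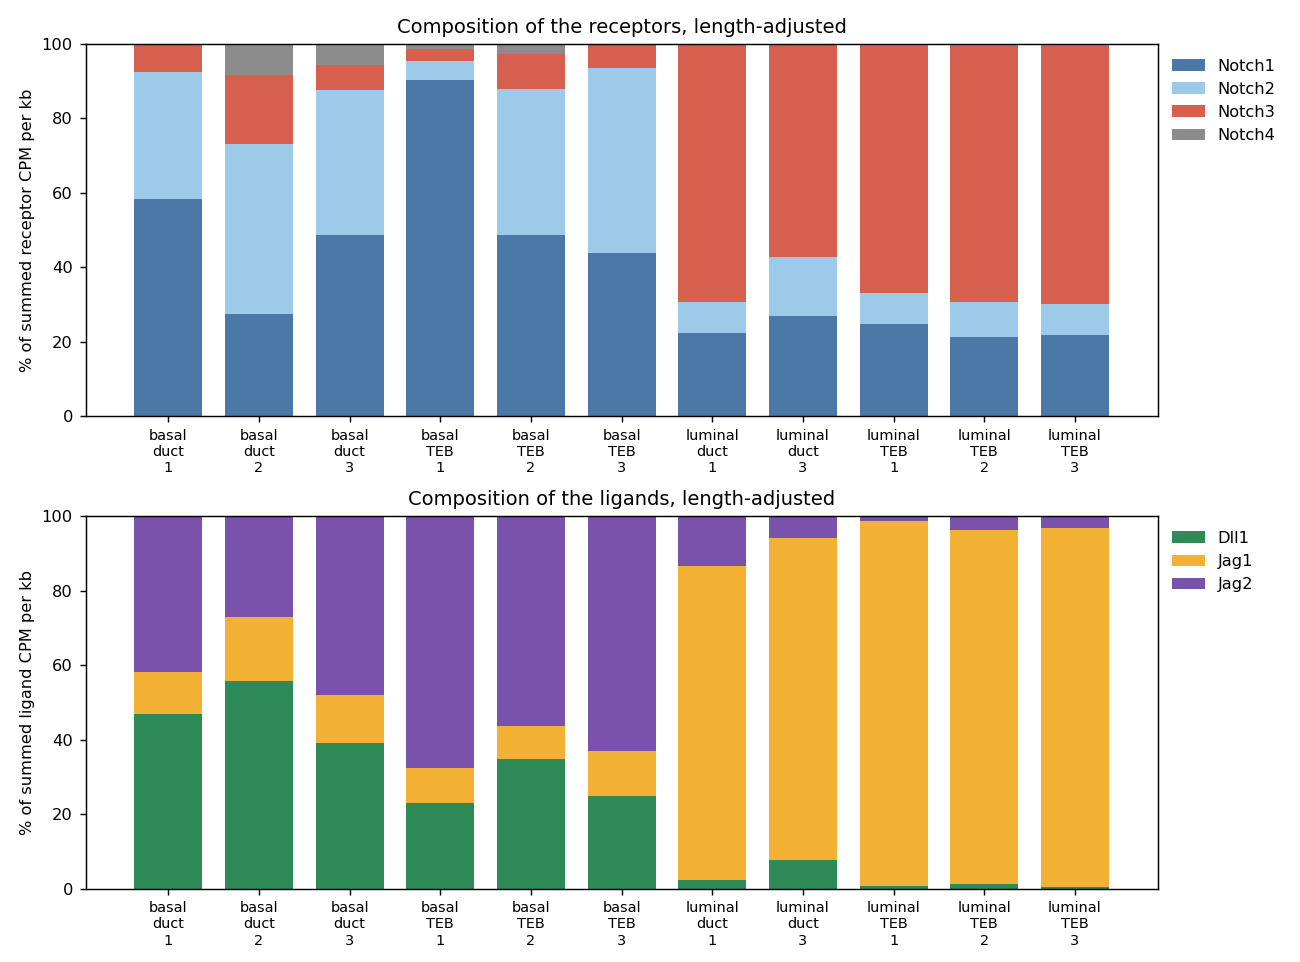
Share of each receptor (upper panel) and each ligand (lower panel) in the summed CPM per kb of its family, as stacked bars in %, 1 bar per library. Notch3 takes between 56.9% and 69.2% of the receptor level in luminal libraries, and Jag1 between 84.3% and 97.9% of the luminal ligand level.

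The ligands were compared in the same way. Dll1 and Jag2 were basal ligands in ducts and in TEBs, with differences of 83.6-fold or more, whereas Jag1 was higher in basal cells of ducts and level between the layers in TEBs. In ducts, 6 of 10 genes of the set were called, 3 higher in basal cells (Dll1, Jag1, Jag2) and 3 lower (Notch3, Hes1, Hey1), where 22.3% of all genes were called, 12.6% higher and 9.71% lower. In TEBs, 3 of 10 were called, 2 higher (Dll1, Jag2) and 1 lower (Notch3), near the 25.1% of all genes called there, 13.2% higher and 11.8% lower. Of all calls in TEBs 52.8% were higher in basal cells, and 37.2% were with library sizes left without a composition factor. The libraries of the 2 layers did not overlap for 7 of 10 members in ducts and 4 of 10 in TEBs, beside 46% and 49.8% of all genes. The median absolute log2 difference of the 10 genes was 1.96 in ducts and 0.57 in TEBs, beside 0.92 and 0.87 over all genes tested.

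Dll1 (Entrez 13388, chr17:15367354-15376932, minus strand), a Delta-like ligand, stood at 423.1, 456.1 and 300.1 CPM in basal duct and at 155.6, 229.0 and 126.8 CPM in basal TEB. In luminal cells it stood at 0.84 and 3.82 CPM in duct and at 0.45, 0.78 and 0.23 CPM in TEB, from counts of 12 to 93 per library. No basal library came near a luminal one. The basal level was higher by 7.45 ± 0.71 on the log2 scale, or 175-fold, in ducts (edgeR, FDR = 1.82e-05) and by 8.44 ± 0.63, or 347-fold, in TEBs (edgeR, FDR = 1.75e-06). The luminal duct value rested on 2 libraries, and the difference in ducts was 6.68 without replicate 1 and 8.86 without replicate 3. Between TEB and duct the libraries of both layers did not overlap, lower in TEB each time, but neither log2 difference was called, at -1.21 ± 0.44 in basal cells (edgeR, FDR = 0.247) and -2.19 ± 0.59 in luminal cells (edgeR, FDR = 0.0908). The luminal value was -0.78 without luminal duct replicate 3 (edgeR, FDR = 0.704) and -2.96 without luminal duct replicate 1, where it was called (edgeR, FDR = 0.00674). Of the exonic bases of Dll1, 20.5% lie opposite exons of the non-coding gene A930024N18Rik, and the library kit does not mark strand, so reads of the 2 genes cannot be told apart there.

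Jag2 (Entrez 16450, chr12:112907803-112929812, minus strand), a Jagged ligand, stood at 445.0, 262.3 and 436.3 CPM in basal duct and at 537.8, 439.7 and 380.2 CPM in basal TEB. It stood at 5.62 and 3.41 CPM in luminal duct and at 0.92, 2.76 and 2.74 CPM in luminal TEB. Basal levels overlapped between duct and TEB and were far from all luminal levels. The basal excess was 6.39 ± 0.54 on the log2 scale, or 83.6-fold, in ducts (edgeR, FDR = 7.52e-06) and 7.72 ± 0.47, or 210-fold, in TEBs (edgeR, FDR = 4.89e-07). Between TEB and duct, the log2 difference was 0.25 in basal cells (95% interval -0.51 to 1.01; edgeR, FDR = 0.805) and -1.08 in luminal cells (95% interval -1.98 to -0.18; edgeR, FDR = 0.215).

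Basal markers were also read in the luminal libraries, where their sum was 225.7 and 403.6 CPM in luminal duct replicates 1 and 3 and between 270.0 and 306.8 CPM in luminal TEB. Dll1 in luminal duct followed that order (0.84 and 3.82 CPM) and Jag2 did not (5.62 and 3.41 CPM). That sum was held up in TEB by Itga6, at 115.0 to 120.1 CPM in luminal duct and 243.1 to 279.4 CPM in luminal TEB. Of the 10 basal markers, 8 were called lower in luminal TEB than in luminal duct, among them Krt14 with a log2 difference of -3.27 (edgeR, FDR = 0.0107) and Acta2 with -3.07 (edgeR, FDR = 0.0104), beside -2.19 for Dll1 and -1.08 for Jag2. The part of basal RNA in the luminal levels of these ligands, and in their differences between TEB and duct, was not tested.

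Jag1 (Entrez 16449, chr2:137081451-137116520, minus strand), the other Jagged ligand, was the only gene of the set called between TEBs and ducts. It stood at 163.7, 224.2 and 158.6 CPM in basal duct and at 100.3, 95.2 and 98.3 CPM in basal TEB. In luminal duct it stood at 48.1 and 68.3 CPM, and in luminal TEB at 92.4, 96.0 and 109.2 CPM. All basal duct libraries thus lay above all others, both luminal duct libraries lay below all others, and the TEB libraries of the 2 layers overlapped. Basal cells exceeded luminal cells by 1.65 ± 0.22 on the log2 scale in ducts, or 3.13-fold (edgeR, FDR = 0.000208). In TEBs the difference was -0.02, with a 95% interval of -0.42 to 0.39 (edgeR, FDR = 0.959).

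In basal cells Jag1 fell by 0.90 ± 0.19 on the log2 scale from duct to TEB (1.86-fold; edgeR, FDR = 0.0426), and 1 of 10 genes was called there, beside 1.32% of all genes (0.167% higher and 1.16% lower). In luminal cells the log2 difference was 0.77 ± 0.21 (1.70-fold; edgeR, FDR = 0.0979), which did not pass the threshold. The basal change minus the luminal change was -1.67 ± 0.28 (95% interval -2.29 to -1.04; edgeR, FDR = 0.0291), the only interaction called in the set, beside 0.443% of all genes (0.0806% above and 0.363% below 0). The basal call was lost without any single one of 8 libraries (basal duct replicates 1 and 2 and all basal TEB and luminal TEB replicates), with an FDR of up to 0.172 and a log2 difference between -0.998 and -0.72. The interaction was lost without any single one of 5 libraries (basal duct replicate 1, basal TEB replicate 3 and the 3 luminal TEB replicates), with an FDR of up to 0.106. Over all alternatives tried, Jag1 was called in 11 of 22 in basal cells and in 14 of 21 for the interaction. The marker sums of basal cells moved between the same groups, and their part in the lower Jag1 and Dll1 of basal TEB was not tested. From basal duct to basal TEB, 4 of 10 basal markers were called lower (Krt5, Krt14, Krt17 and Oxtr, by 1.96 to 2.89 on the log2 scale), and fibroblast markers summed to between 430 and 840 CPM in basal duct and between 226 and 406 CPM in basal TEB.

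**Figure D4:**
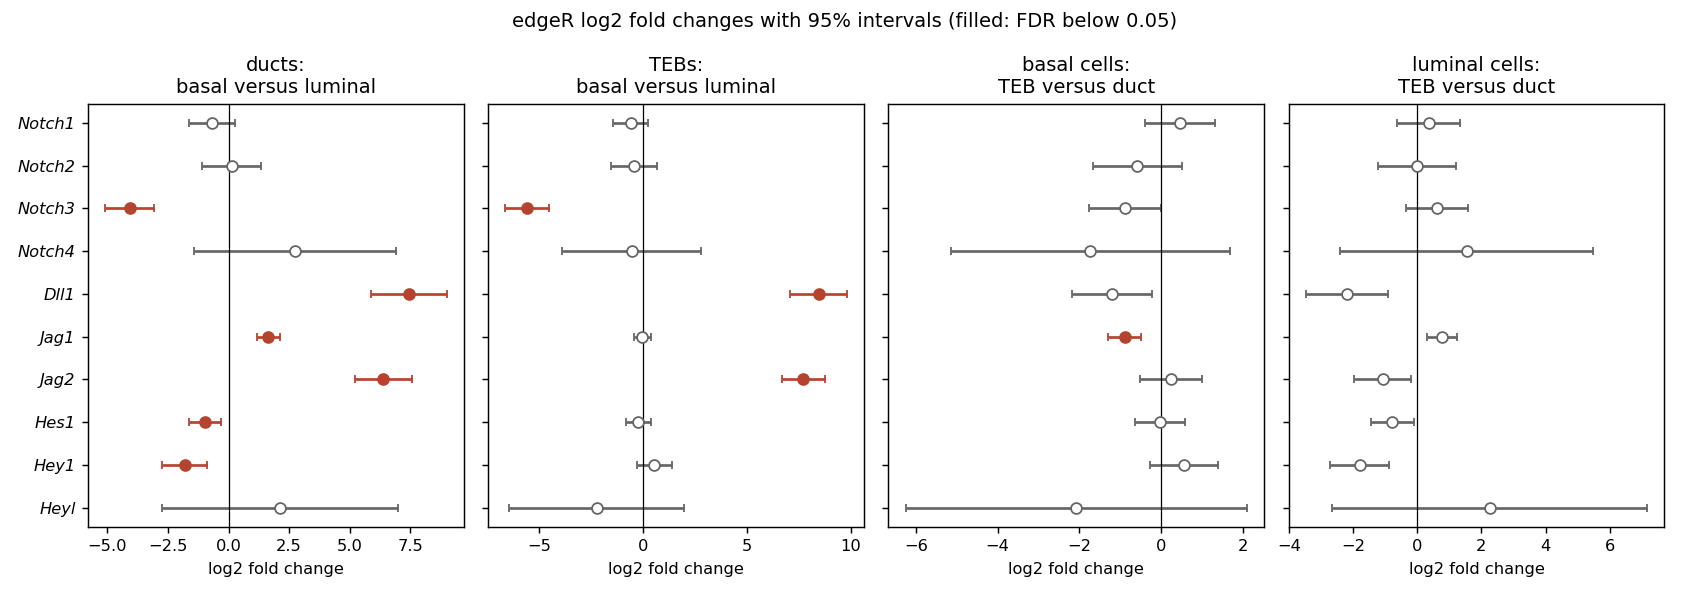
log2 fold changes of the 10 genes in 4 comparisons (1 panel each, linear axes of different range), with 95% intervals from edgeR, filled where the FDR is below 0.05. Notch3, Dll1 and Jag2 stand apart from 0 between the layers in both structures, and Jag1 is the 1 filled point between TEB and duct.

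As shares of the summed ligand CPM per kb, Jag1 made up 85.3% ± 1.5 (SD, n = 2) in luminal duct and 96.5% ± 1.4 (n = 3) in luminal TEB. In basal duct the shares were 47.3% ± 8.4 for Dll1, 39.0% ± 10.7 for Jag2 and 13.8% ± 3.0 for Jag1 (n = 3). In basal TEB they were 27.6% ± 6.2, 62.3% ± 5.7 and 10.1% ± 1.7 in the same order (n = 3). Dll1 and Jag2 overlapped in their levels per kb over basal duct libraries, whereas in basal TEB every library had Jag2 above Dll1. The ligand sum was 242 ± 20 CPM per kb in basal duct, 179 ± 26 in basal TEB, 12.4 ± 2.8 in luminal duct and 18.7 ± 1.7 in luminal TEB.

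The target genes were compared next. Hes1 and Hey1, repressors of the bHLH class that Notch activity induces in many tissues, were lower in basal than in luminal cells of ducts. Neither was called in TEBs, and Heyl, a related repressor, was called in 0 comparisons.

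Hes1 (Entrez 15205, chr16:30065357-30067796, plus strand) stood at 128.4 and 75.5 CPM in luminal duct and at 62.2, 57.3 and 58.2 CPM in luminal TEB. It stood at 51.3, 70.1 and 34.9 CPM in basal duct and at 39.3, 51.3 and 62.4 CPM in basal TEB. Both luminal duct libraries were above all others, the second by little. In ducts the basal level was lower by 0.97 ± 0.31 on the log2 scale (1.96-fold; edgeR, FDR = 0.0402). Without luminal duct replicate 1 this difference was -0.53 (edgeR, FDR = 0.317), and the call was also lost without any single one of basal duct replicates 1 and 3, basal TEB replicate 2 and the luminal TEB replicates, at an FDR between 0.0569 and 0.116. In TEBs the difference was -0.22 (95% interval -0.82 to 0.39; edgeR, FDR = 0.627). From duct to TEB, Hes1 differed by -0.78 ± 0.31 in luminal cells (edgeR, FDR = 0.226) and by -0.03 ± 0.28 in basal cells (edgeR, FDR = 0.987). Its interaction was 0.75 (95% interval -0.15 to 1.66; edgeR, FDR = 0.416), so a difference between ducts and TEBs was not called.

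Hey1 (Entrez 15213, chr3:8663359-8667038, minus strand) stood at 47.3 and 123.3 CPM in luminal duct and at 19.5, 37.7 and 16.4 CPM in luminal TEB. It stood at 24.7, 20.2 and 27.9 CPM in basal duct and at 44.7, 29.6 and 33.4 CPM in basal TEB. Both luminal duct libraries exceeded the rest, but differed from each other by a wide margin. The basal level in ducts was lower by 1.81 ± 0.42 on the log2 scale (3.51-fold; edgeR, FDR = 0.00833). Without luminal duct replicate 3 this difference was -0.96 (edgeR, FDR = 0.162). That library had a mitochondrial share of 28.5% and the highest fibroblast, immune, adipocyte, erythroid, endothelial and pericyte sums of the luminal libraries. The part of these in the Hey1 level was not tested. In TEBs the difference was 0.55 (95% interval -0.29 to 1.38; edgeR, FDR = 0.335). From duct to TEB the log2 difference was -1.79 ± 0.42 in luminal cells (edgeR, FDR = 0.0620) and 0.56 ± 0.38 in basal cells (edgeR, FDR = 0.537), and the interaction was 2.36 (95% interval 1.12 to 3.60; edgeR, FDR = 0.108), none of which was called. The luminal difference was -0.95 without luminal duct replicate 3 (edgeR, FDR = 0.433) and -2.33 without luminal duct replicate 1, where it was called (edgeR, FDR = 0.00784). Sums of 6 luminal progenitor markers, of which 0 were called (745.1 and 862.5 CPM in luminal duct, 375.7 to 477.8 CPM in luminal TEB), and of the stress response list (15341 and 17840 CPM against 11019 to 13580 CPM) were also lower in luminal TEB without overlap. Their part in the Hey1 and Hes1 levels was not tested.

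Heyl (Entrez 56198, chr4:123233556-123249870, plus strand) stood at 0.020, 1.97 and 1.80 CPM in basal duct and at 0, 0.57 and 0.31 CPM in basal TEB. It stood at 0.57 and 0 CPM in luminal duct and at 1.48, 0.97 and 1.73 CPM in luminal TEB. Counts of 0 allow up to 0.173 CPM in basal TEB replicate 1 and up to 0.123 CPM in luminal duct replicate 3. Zero counts stood in the libraries with the 2 highest mitochondrial shares, while basal duct replicate 1, with a share of 6.66%, had 1 count. The part of library quality was not tested.

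Per kb, Hes1 was the highest of the 3 targets on average in each group, at 35.9 ± 12.1 CPM per kb in basal duct, 35.1 ± 7.9 in basal TEB, 70.3 ± 25.8 in luminal duct and 40.8 ± 1.8 in luminal TEB. In luminal duct Hes1 and Hey1 (38.7 ± 24.4 CPM per kb) overlapped, and replicate 3 had more Hey1 than Hes1, at 51.8% of the target sum. Over the whole set, the order in basal duct was Dll1 and Jag2 (overlapping), Hes1 and Jag1 (overlapping), Hey1, then the receptors and Heyl. In luminal TEB the order was Hes1, Notch3, then Jag1, Hey1 and Notch1, of which neighbours overlapped, then Notch2, and Jag2, Heyl, Notch4 and Dll1 all below 1 CPM per kb on average.

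Of the 10 genes, 0 were called between TEB and duct in luminal cells by edgeR's quasi-likelihood test, beside 1.41% of all genes (0.639% higher and 0.771% lower), and 5 had an unadjusted p under 0.05 (Dll1, Jag1, Jag2, Hes1, Hey1). DESeq2 called 2, beside 8.07% of the genes it tested. The likelihood ratio test of edgeR called 3, beside 5.79%, and limma voom 0, beside 2.02%. For 9 of 10 members the 3 TEB libraries all lay on one side of the 2 duct libraries, as they did for 43.7% of the genes tested. In basal cells such a separation was seen for 3 of 10 members (Dll1 and Jag1 lower and Hey1 higher in TEB), beside 20.8% of the genes tested.

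The rest of the pathway was examined through 49 listed genes, of which 46 passed the filter and Hes2, Hes3 and Hes5 did not. In basal cells between TEB and duct 0 of 46 were called, beside 1.32% of all genes, and 3 had an unadjusted p under 0.05. DESeq2 called 1 there, beside 6.16% of the genes it tested. For the interaction 0 of 46 were called, beside 0.443% of all genes, and 7 had an unadjusted p under 0.05. DESeq2 called 0 for the interaction, beside 4.50%. In luminal cells 1 of 46 was called, beside 1.41% of all genes. This was Dtx3, a ubiquitin ligase of the Deltex family. Its level was 176 and 280 CPM in luminal duct and between 78.5 and 85.6 CPM in luminal TEB. The fall was 1.47 ± 0.20 on the log2 scale (edgeR, FDR = 0.0095). Between the layers, 10 of 46 were called in ducts (7 higher in basal cells and 3 lower) and 12 of 46 in TEBs (5 higher and 7 lower), close to the shares over all genes given above. The median log2 difference of the 46 genes was 0.31 in ducts and -0.06 in TEBs, beside 0.08 and 0.04 over all genes.

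Among the genes that modify receptors with sugars, Lfng and Poglut1 were higher in basal cells in both structures. Lfng, the fringe enzyme that alters which ligands a receptor answers to, stood between 25.2 and 55.9 CPM in basal and between 7.53 and 23.2 CPM in luminal libraries. Its log2 difference was 2.41 ± 0.43 in ducts (edgeR, FDR = 0.00145) and 1.25 ± 0.35 in TEBs (edgeR, FDR = 0.0202). Poglut1, which adds O-glucose, stood between 97.6 and 147 CPM in basal and between 19.3 and 29.2 CPM in luminal libraries, with a log2 difference of 2.23 in ducts and 2.07 in TEBs. Pofut1, which adds O-fucose, was called in ducts, at 0.89, and not in TEBs, at 0.20, and its interaction was not called (edgeR, FDR = 0.383).

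Dlk2, a non-canonical ligand, had the largest difference among the 46 genes called, at 7.69 ± 1.01 in ducts (edgeR, FDR = 0.000175) and 7.09 ± 0.79 in TEBs (edgeR, FDR = 3.91e-05). It stood between 17.9 and 29.2 CPM in basal and at or below 0.324 CPM in luminal libraries. Adam10, a metalloprotease that cuts the receptor after ligand binding, was lower in basal cells, at 80.1 to 114 CPM against 255 to 445 CPM in luminal libraries. Its log2 difference was -1.75 ± 0.24 in ducts (edgeR, FDR = 0.000224) and -2.12 ± 0.22 in TEBs (edgeR, FDR = 2.54e-05). Psen2, a catalytic subunit of gamma-secretase, was lower in basal cells of TEBs by 1.04 and was not called in ducts, at -0.84.

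In the nuclear complex, the coactivator Maml2 was higher in basal cells by 1.38 in ducts and 1.82 in TEBs. The acetyltransferase Crebbp was higher by 0.66 in ducts and was not called in TEBs, at 0.09. Rbpj itself was not called in any comparison, at 49.5 to 86.8 CPM in basal and 40.7 to 68.1 CPM in luminal libraries. Nrarp, a target that feeds back on the pathway, was lower in basal TEB by 1.73 ± 0.41 (edgeR, FDR = 0.00867), with 6.17 to 7.87 CPM in basal and 23.1 to 24.4 CPM in luminal TEB, and had -1.06 in ducts (edgeR, FDR = 0.110).

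Regulators of receptor turnover moved in both directions. Numb and Numbl, related adaptors that restrain Notch, went opposite ways, with Numbl higher in basal cells by 1.54 in ducts and 1.77 in TEBs and Numb lower by 1.16 in TEBs (edgeR, FDR = 0.0135). In the Deltex family, Dtx4 was lower in basal cells by 2.32 in ducts and 1.98 in TEBs, Dtx3 was lower by 0.68 in ducts, and Dtx3l was lower by 3.81 in TEBs (edgeR, FDR = 0.00741). For Dtx3l, basal TEB replicate 1 had a count of 0, and the other basal TEB libraries had 8.04 and 5.60 CPM against 56.3 to 77.7 CPM in luminal TEB.

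**Figure D5:**
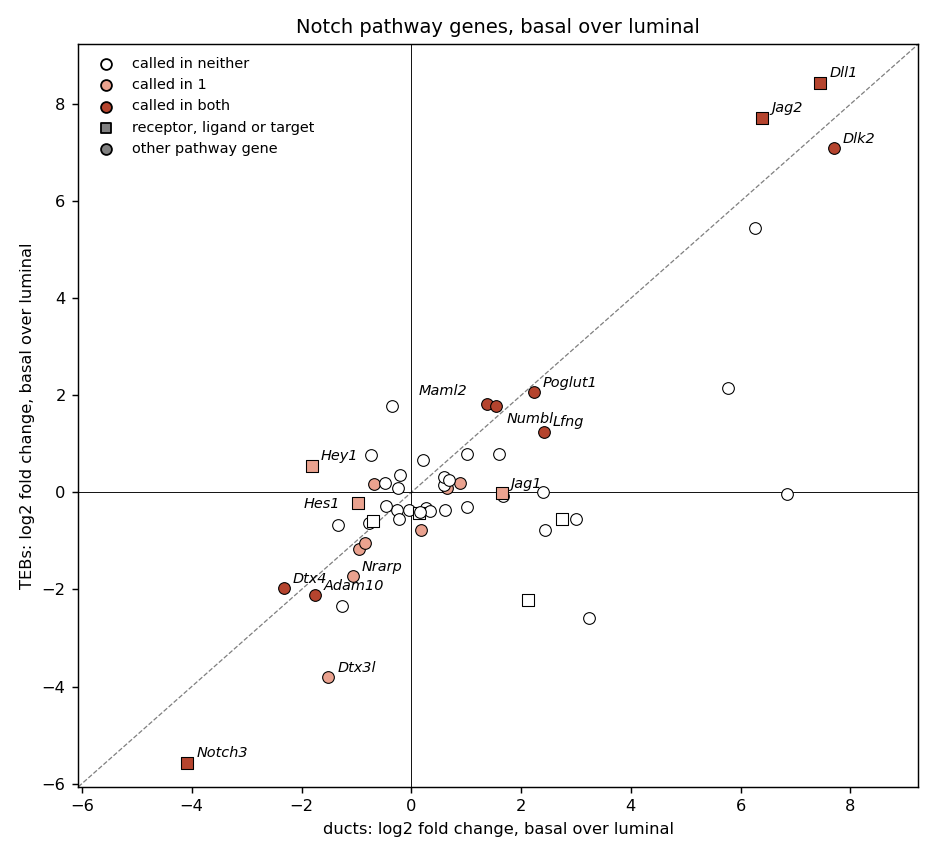
log2 fold change of basal over luminal cells in ducts (x axis) and in TEBs (y axis) for the 10 genes of the set (squares) and 46 other pathway genes (circles), shaded by the number of structures in which a gene was called. Dll1, Jag2 and Dlk2 lie at the upper right and Notch3 at the lower left, while Jag1 lies on the zero line of TEBs.

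The genes most like each member over the 11 libraries were named by Pearson correlation of log2 CPM among 7661 tested genes, as a description. The points of each correlation share their groups, their libraries and their depth, and no test was made. Dll1 was closest to Actg2 (r = 0.996) and Ptpre (r = 0.995), Jag2 to Slc3a2 (0.994) and Krt23 (0.993), and Notch3 to Baz2a and Pxylp1 (0.991 each). Jag1 was closest to Crtc3 (0.947) and Ifitm3 (0.932), Notch1 to Supt6 (0.983) and Ano10 (0.982), and Notch2 to Zfc3h1 and Rsbn1l (0.977 each). Hes1 was closest to Polr1d (0.908) and Gadd45a (0.906), Hey1 to Luc7l (0.912) and Safb2 (0.878), Notch4 to Socs6 (0.908) and Mdm4 (0.800), and Heyl to Stx3 (0.902) and Rbbp5 (0.886).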

How the data were processed

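RNA-seq libraries were made by the authors with the TruSeq RNA v2 kit from sorted cells of microdissected TEBs and ducts, each replicate being a pool of 2 or more animals. A luminal duct replicate that gave too few cells was left out by the authors. The authors mapped the 80 bp read pairs to mm10 and counted them per Entrez gene with Rsubread (featureCounts, version not given in the sources used here). The deposited values are these raw counts, not normalized, and the gene lengths used here are those of the deposited table.

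The counts were analysed with edgeR 4.0.16 (R 4.3.3). Genes were kept by filterByExpr (minimum count 10, minimum total 15), scaled by TMM and fitted in 1 model of 4 groups without a replicate block. The quasi-likelihood test was used with Benjamini-Hochberg adjustment over 17370 genes at an FDR of 0.05, and each standard error was taken as the absolute log2 fold change over the root of the F statistic. The common biological coefficient of variation was 0.704. The log2 CPM values have a prior count of 2. The scripts were tested on simulated counts. The series' design text names 3 mouse pools, which the 4 groups may share, and no source ties replicate numbers to pools, so p-values measure the spread between these libraries.

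The members and lists were chosen with earlier results of these data known. Named were all 10 members, the other pathway genes called in at least 1 comparison or not passing the filter (an item among them is not reported here), and, per member, the 2 most correlated genes whose log2 CPM averaged 4 or more. Dll4 and Rbpj were added after their values were seen. Alternatives were other scalings, filters and tests (DESeq2 1.42.0, limma 3.58.1), a fit of only the groups compared, the replicate number as a block and each library left out. The removal of the 2 libraries with the highest mitochondrial share was chosen after seeing the data.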

Additional observations from a re-analysis of the deposited data

Results flagged for a closer look

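The change of Jag1 from duct to TEB differed between the layers. It stood between 158.6 and 224.2 CPM in basal duct and between 95.2 and 100.3 CPM in basal TEB, and between 48.1 and 68.3 CPM in luminal duct and between 92.4 and 109.2 CPM in luminal TEB. The basal log2 change minus the luminal log2 change was -1.67 (SE 0.28; edgeR quasi-likelihood interaction test, FDR = 0.0291), called in 14 of 21 alternatives. All TEB libraries lay below the duct libraries in basal cells and above them in luminal cells. Libraries were separated in this way, in either direction, for 20.8% of all genes in basal and 43.7% in luminal cells. The luminal change by itself was not called (edgeR, FDR = 0.0979). The luminal duct arm of the interaction holds 2 libraries.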

How the results depend on the processing

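The basal to luminal differences of Notch3, Dll1 and Jag2 in both structures and of Jag1 in ducts kept their direction and their call in all 22 alternatives. Jag1 in basal cells was called in 11 of 22, the Jag1 interaction in 14 of 21, Hes1 in ducts in 12 of 22 and Hey1 in ducts in 20 of 22. Some differences not called in the main fit were called in alternatives. These were Notch1 in TEBs (4 of 22), Notch2 in ducts (1 of 22) and Dll1 in luminal (4 of 22) and basal cells (1 of 22). The others were Hey1 (5 of 22) and Jag1 (1 of 22) in luminal cells and the Hey1 interaction (3 of 21). The number of members called in basal cells between TEB and duct was 1. It was 0 with library sizes alone (0.328% of the genes tested were called), 0 with only the groups compared (1.21%) and 2 with limma voom (3.46%). In luminal cells (0) it was 2 with no filter (1.67% of the genes tested) and 1 with a mean CPM of at least 1 (2.18%). DESeq2 called 2 there (8.07%) and the likelihood ratio test 3 (5.79%). For the interaction (1) the number was 0 with library sizes alone (0.0864%), 2 with DESeq2 (4.50%) and 2 with the likelihood ratio test (3.62%). Over the libraries left out in turn it ranged from 0 to 1 in basal cells, 0 to 2 in luminal cells, 5 to 6 in ducts, 3 to 4 in TEBs and 0 to 2 for the interaction. The cause of these shifts was not tested. Without the 2 libraries of highest mitochondrial share the counts were 1, 0, 6, 4 and 1 in that order. The genes called were not all the same. In ducts Hey1 was lost (-0.96; edgeR, FDR = 0.118) and Notch2 was gained (edgeR, FDR = 0.0345), and in TEBs Notch1 was gained. Calls among the other 46 pathway genes ranged over all alternatives from 0 to 1 in basal cells (0), 0 to 6 in luminal cells (1), 6 to 14 in ducts (10), 8 to 17 in TEBs (12) and 0 to 3 for the interaction (0).

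Scaling by library size alone moved the median log2 difference of all genes from -0.03 to -0.16 in basal cells, from 0.04 to 0.42 in luminal cells, from 0.08 to 0.19 in ducts, from 0.04 to -0.35 in TEBs and from -0.13 to -0.63 for the interaction, and it took the share of calls that were higher in basal cells of TEBs from 52.8 to 37.2%. The share of calls higher in TEB went from 12.6 to 1.75% in basal cells and the share above 0 from 18.2 to 6.67% for the interaction, where Jag1 stood at -2.22 (FDR = 0.0591, edgeR). Signs reversed only for differences that were not called. With library sizes alone Notch2 in luminal cells was 0.42 and the Notch1 interaction -0.62. With limma voom Notch2 in luminal cells was 0.19, the Notch1 interaction -0.24 and Hes1 in basal cells 0.059. With only the groups compared Jag1 in TEBs was 0.0071. Without the 2 libraries of highest mitochondrial share Notch1 in basal cells was -0.19, its interaction -0.79, Hes1 in basal cells 0.14, Notch2 in luminal cells 0.62 and in TEBs 0.029, and the Dll1 interaction -0.37. Over the libraries left out in turn, the values that changed sign ranged from -0.19 to 0.78 for Notch1 and -0.25 to 0.24 for Hes1 in basal cells, from -0.46 to 0.60 for Notch2 in luminal cells and -0.30 to 0.76 in ducts, from -0.79 to 0.031 for Notch2, -1.36 to 0.047 for Notch4 and -0.071 to 0.048 for Jag1 in TEBs, and from -0.57 to 0.42 for the Notch1 and -0.42 to 1.75 for the Dll1 interaction.

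With the replicate number as a block, members called were 0 in basal cells and 0 for the interaction (Jag1 FDR = 0.0604 and 0.0658, edgeR) and 5 in ducts, Hes1 in basal cells was 0.018 and the Notch1 interaction -0.061. The deviations of libraries had r over 0.1 in 4 of 15 pairs with the same number (median 0.069) and in 2 of 30 with different numbers (median -0.026), and 7 of 11 libraries correlated best with one of their own number. This is a hint of shared pools from the data, but not every pair passed 0.1 and no label ties the numbers, so the fit without the block was kept. Deviations were centred within groups, so the 2 luminal duct libraries mirror each other (r with luminal TEB replicate 1 of 0.163 and -0.163). The pairs are therefore not independent, and both pairs of different numbers over 0.1 include luminal duct replicate 3. These counts cannot settle whether pools were shared.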

Other observations

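Dll3, a ligand that acts mainly within the cell, had 51 counts in 4 of 11 libraries, and Dlk1 had 44 counts in 4 of 11, all of them basal. Hes5, a target best known from neural progenitors, had 34 counts in 4 of 11 libraries, Hes2 had 39 in 2 and Hes3 had 16 in 2.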
